A study of Mus musculus with 6 samples.

Results

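With 2 exceptions, Psmc3ip and Psme3ip1, the genes examined here encode subunits of the proteasome or proteins that assemble or regulate it. They were taken by symbol, as genes named Psma, Psmb, Psmc, Psmd, Psme, Psmf or Psmg with a number, without the inducible subunits Psmb8, Psmb9 and Psmb10. This gave 46 genes of the 22180 with a probe set of 1 symbol, and a gene with more than 1 probe set was represented by the one of highest mean. Expression was measured on 6 Affymetrix arrays, 3 titled chronic myeloid leukemia (CML) and 3 titled acute myeloid leukemia (AML), with RNA from sorted bone marrow cells of mice. The labels call the cells osteoblastic and the titles call them stromal, and all 6 samples have the Col2.3 GFP genotype, green fluorescent protein under a piece of the Col1a1 promoter that is active in bone-forming cells. The labels do not say how either leukemia was raised, the age or strain of the mice, or whether each sample came from a separate mouse. The p-values below therefore rest on a spread between samples that may be only technical. CML stands in the source name of every sample, AML ones included, and each direction given here rests on the titles.

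The proteasome degrades proteins that carry ubiquitin chains. Its 20S core particle is a stack of rings, with alpha subunits outside and beta subunits inside, and some of the beta subunits carry the proteolytic sites. The 19S regulatory particle binds the ubiquitin chain, unfolds the substrate with a ring of ATPases and feeds it into the core. Dedicated chaperones assemble both particles, and alternative activators can cap the core in place of the 19S particle. When proteasome capacity is short, the factor NRF1 (Nfe2l1) raises transcription of the subunit genes through antioxidant response elements, and in bone-forming cells the proteasome degrades regulators such as RUNX2 and beta-catenin. Plasma cells and leukemic cells are known for their dependence on it.

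The letters TGACNNNGC form the core of the antioxidant response element. Because this is the element through which the subunit genes are known to be raised together, the 300 bases around the start of each gene (250 before, 50 after) in the RefSeq promoter table of build GRCm38.p6 were searched for it on both strands. The table held 38 of the 46 genes, and 6 of the 38 (15.8%) had a match, against 14.0% of all 27025 genes in the table. The 6 matches are shown with up to 10 bases on either side, on the strand where they read TGACNNNGC, with the match in capitals. The lines give Psmb5 (chr14:54618024-54618052, minus strand), Psmb6 (chr11:70525338-70525366, plus strand), Psmc6 (chr14:45329587-45329615, minus strand), Psmd12 (chr11:107479278-107479299, minus strand), Psmd9 (chr5:123228149-123228177, plus strand) and Psme4 (chr11:30771758-30771786, minus strand).
Psmb5: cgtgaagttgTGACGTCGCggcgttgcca
Psmb6: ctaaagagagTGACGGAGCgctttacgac
Psmc6: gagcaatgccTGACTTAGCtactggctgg
Psmd12: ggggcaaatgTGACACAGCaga
Psmd9: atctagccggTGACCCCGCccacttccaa
Psme4: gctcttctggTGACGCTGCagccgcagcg
The match of Psmb6 ended 1 base before the start and that of Psmb5 39 bases before it, while that of Psme4 lay across it. The CCAAT box, the other motif searched, was found in 15 of the 38 genes (39.5%) and in 41.1% of all genes. Both shares were close to those of all promoters of this length, and a match is a description of letters, not of binding.

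As a group the 46 genes were higher in AML by value, and no single one passed the test. The log2 change, AML minus CML, was above 0 in 38 of 46 genes and had a median of 0.38, against -0.11 over all 22180 genes, of which 38.3% were above 0. With limma and Benjamini-Hochberg adjustment over all genes, 0 of 46 passed an adjusted p of 0.05 in either direction, where 1.83% of all genes passed as higher and 0.0812% as lower. At an unadjusted p under 0.05 in limma, 9 were higher and 1 was lower, where 12.6% and 8.99% of all genes were. The 3 AML arrays lay entirely above the 3 CML arrays for 8 genes and entirely below for 2, where 13.3% and 17.9% of all genes did so. Psmc3ip and Psme3ip1, which carry the prefix without being subunits, are counted among the 9 and among the 8. In sorted bulk samples, more cells of a type and more RNA per cell cannot be told apart.

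**Figure D1:**
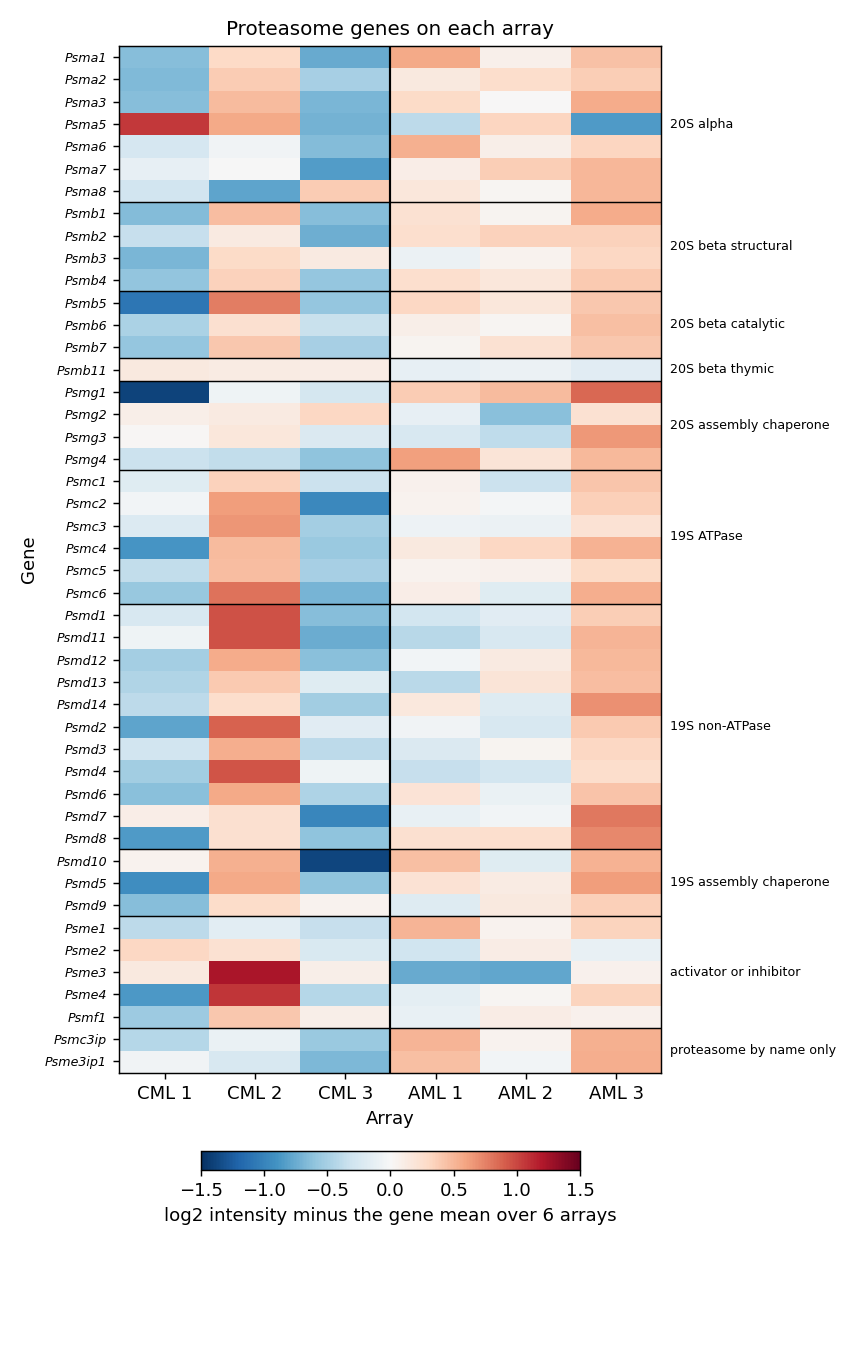
Log2 intensity of each of the 46 genes on each of the 6 arrays, as the difference from the gene's mean over the arrays (colour scale from -1.5 to 1.5), with genes in rows grouped by role and arrays in columns. CML 2 and AML 3 are red for most subunits of the 20S and 19S particles, and CML 1 and CML 3 are blue.

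Proteasome genes are among the brightest on these arrays, and their values are set here beside those of bright genes. Of the 46 genes, 30 were in the upper 10% of genes by mean level, a division made after the values were seen. The 2218 genes of that upper 10% had a median change of 0.42, and 77.1% of them were higher in AML by value. In that stratum 33.5% had an unadjusted p under 0.05 in limma as higher in AML, 34.5% had AML arrays entirely above the CML arrays, and 3.34% had them entirely below. The median of the 46 genes, 0.38, and their share above 0, 82.6%, were near those of bright genes in general. The 9 of 46 higher at an unadjusted p under 0.05 in limma were a smaller share than among bright genes. So were the 8 of 46 with AML arrays entirely above. The medians of the 20S and 19S subunits, 0.55 and 0.26, lay on either side of 0.42. The spread of log2 values over probe sets, its SD, was 1.75 to 1.83 on the CML arrays and 1.88 to 1.91 on the AML arrays, and its part in the shift was not tested.

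The scaling between arrays moved the size of the shift and, for the 19S particle, its direction. The values as deposited gave medians of 0.55 for 13 subunits of the 20S core and 0.26 for 17 subunits of the 19S particle. Median centring, which moved the median of all genes from -0.11 to 0.04, gave 0.70 and 0.41, quantile normalization gave 0.39 and 0.06, and cyclic loess gave 0.22 and -0.08. The 20S median thus stayed above 0 under all 4 scalings, and the 19S median turned under cyclic loess. In all, 26 of the 46 genes were higher and 6 lower under all 4 scalings, while 14 changed sign. The difference between the 20S and 19S medians was 0.29 as deposited, 0.29 after median centring, 0.33 after quantile normalization and 0.29 after cyclic loess. It ran from 0.26 to 0.36 with 1 array left out, and was 0.38 with the mean of probe sets and 0.39 with the other probe sets. Array by array, the 20S mean minus the 19S mean overlapped between the groups, at -0.03, -0.25 and -0.04 in CML and 0.23, 0.22 and -0.13 in AML. No test of that difference was run.

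**Figure D2:**
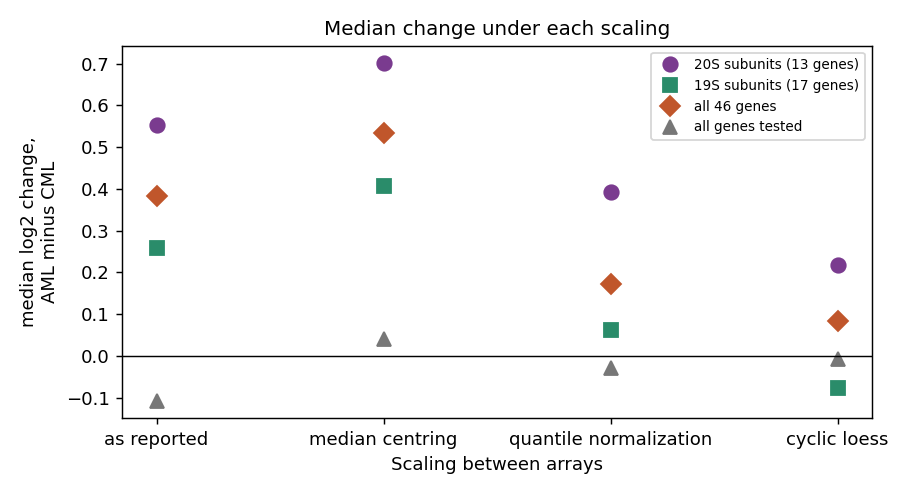
Median log2 change, AML minus CML, of 13 subunits of the 20S core, 17 subunits of the 19S particle, all 46 genes and all genes tested, under 4 scalings between arrays. The 20S median runs from 0.70 down to 0.22 and the 19S median from 0.41 down to -0.08, with a similar gap between them throughout.

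The alpha subunits, which form the outer rings and gate the core, were mostly higher by value. Psma6 had log2 intensities of 9.21, 9.42 and 8.82 in CML and 10.002, 9.56 and 9.80 in AML, each in the order of replicates 1, 2 and 3, as in all sentences below. The groups did not overlap, with a change of 0.63 ± 0.21 (SE, n = 3 each; limma adjusted p = 0.164). Psma7 was at 9.74, 9.86 and 9.03 in CML and 9.96, 10.23 and 10.36 in AML, again without overlap, a change of 0.64 ± 0.25 (SE; limma adjusted p = 0.212). Psma1 was at 7.36, 8.30 and 7.24 in CML and 8.57, 8.07 and 8.43 in AML. Only CML 2 reached into the AML range, and the change was 0.72 ± 0.31 (SE; limma adjusted p = 0.237). Psma2 and Psma3 were higher by 0.52 and 0.57 and also overlapped through CML 2. Psma4 was not analysed here.

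A pair of alpha subunit genes stood apart from the rest. Psma5, an obligatory subunit, was dim, at 4.52, 4.03 and 2.75 in CML and 3.07, 3.79 and 2.62 in AML, where the medians of whole arrays lay between 4.11 and 4.35. Its change was -0.61 ± 0.50 (SE), and its other probe set, at 2.60 to 3.16 on all arrays, gave -0.35. Psma8, the alpha subunit of the testis proteasome, was at 4.11, 3.61 and 4.78 in CML and 4.57, 4.43 and 4.90 in AML. Its groups overlapped, with a change of 0.47 ± 0.31 (SE; limma adjusted p = 0.382).

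The 3 beta subunits that carry the proteolytic sites of the standard proteasome were higher by value in AML, and CML 2 lay among or above the AML arrays. Psmb5, the chymotrypsin-like subunit and the target of bortezomib, was at 8.50, 10.35 and 9.01 in CML and 9.90, 9.76 and 9.995 in AML. CML 2 was the highest of all 6 arrays for this gene. Its change was 0.60 ± 0.45 (SE; limma adjusted p = 0.428) and 1.13 ± 0.21 without CML 2 (SE; limma adjusted p = 0.0587). Psmb6, the caspase-like subunit, was at 6.48, 7.20 and 6.63 in CML and 7.05, 6.99 and 7.41 in AML, a change of 0.38 ± 0.23 (SE). Psmb7, the trypsin-like subunit, was at 8.46, 9.44 and 8.55 in CML and 9.08, 9.27 and 9.45 in AML, a change of 0.45 ± 0.28 (SE). All 3 genes were higher by value under the 4 scalings, with a median from 0.12 after cyclic loess to 0.60 after median centring.

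Among the 4 beta subunits without proteolytic sites, Psmb2 was the one whose groups did not overlap. It was at 8.87, 9.34 and 8.48 in CML and 9.46, 9.55 and 9.55 in AML, a change of 0.63 ± 0.23 (SE, n = 3 each; limma adjusted p = 0.196). Psmb1, Psmb4 and Psmb3 were higher by value by 0.55, 0.55 and 0.18. Psmb11, the proteolytic subunit of the thymic proteasome, was below the array median on every array, at 3.50 to 3.53 in CML and 3.22 to 3.30 in AML. These groups did not overlap, at a change of -0.25 ± 0.12 (SE; limma adjusted p = 0.274), and the change shrank to -0.05 after cyclic loess.

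The chaperones of the 20S core held the lowest p and the largest rise by value, and the partners within each pair differed. They work as heterodimers, Psmg1 with Psmg2 and Psmg3 with Psmg4. Psmg4 was at 5.16, 5.11 and 4.87 in CML and 6.10, 5.67 and 5.96 in AML. The groups did not overlap, and the change of 0.86 ± 0.17 was the one nearest to the threshold (SE, n = 3 each; limma adjusted p = 0.062). After median centring it passed (limma adjusted p = 0.0424), and over all settings tried its adjusted p ran up to 0.228. Its partner Psmg3 was at 7.05, 7.20 and 6.81 in CML and 6.79, 6.64 and 7.68 in AML, a change of 0.02 ± 0.29 (SE) with a 95% interval from -0.68 to 0.72.

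Psmg1 was at 5.07, 6.40 and 6.19 in CML and 6.84, 6.94 and 7.32 in AML. Its groups did not overlap, with a change of 1.15 ± 0.36, or 2.22-fold (SE, n = 3 each; limma adjusted p = 0.155). The change was 0.74 without CML 1, the lowest array, and 1.40 without CML 2. Its partner Psmg2 was at 7.12, 7.16 and 7.34 in CML and 6.90, 6.40 and 7.25 in AML. The groups overlapped at -0.35 ± 0.23 (SE; limma adjusted p = 0.379), and the other probe set of Psmg2 gave 0.20. The differences between partners were not tested.

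The 6 ATPases of the 19S particle unfold substrates, and all were higher by value with overlapping groups. Psmc4 led, at 7.02, 8.38 and 7.35 in CML and 8.05, 8.22 and 8.43 in AML. CML 1 and CML 3 lay below all AML arrays and CML 2 within them, for a change of 0.65 ± 0.35 (SE; limma adjusted p = 0.310). Psmc3 differed least, at 8.19, 9.05 and 7.88 in CML and 8.32, 8.30 and 8.61 in AML, a change of 0.03 ± 0.31 (SE) with a 95% interval from -0.70 to 0.77. The other 4, Psmc1, Psmc2, Psmc5 and Psmc6, ran from 0.10 to 0.30, and the other probe set of Psmc2 gave 0.09. The median of the 19S particle, 0.26, became 0.16 with the other probe sets and 0.18 with the mean of probe sets. After cyclic loess only 1 of the 6, Psmc4, was above 0.

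The 11 non-ATPase subunits of the 19S particle had a median change of 0.16, and 8 were above 0. Psmd8, a lid subunit, was at 8.30, 9.39 and 8.55 in CML and 9.39, 9.39 and 9.86 in AML. CML 2 lay level with AML 1 and AML 2, and the change was 0.80 ± 0.31 (SE; limma adjusted p = 0.209). Psmd14, the deubiquitinase that removes the ubiquitin chain before degradation, was at 7.13, 7.78 and 6.99 in CML and 7.68, 7.33 and 8.20 in AML, a change of 0.44 ± 0.30 (SE; limma adjusted p = 0.393). Psmd4, a ubiquitin receptor, was at 7.82, 9.29 and 8.28 in CML and 8.01, 8.07 and 8.61 in AML. It had the lowest change of the 11, at -0.24 ± 0.39, and turned to 0.18 ± 0.26 without CML 2 (SE; limma adjusted p = 0.711 and 0.668). The scaffold subunits Psmd1 and Psmd2 were at -0.05 and 0.06, with 95% intervals from -1.06 to 0.96 and from -0.95 to 1.07. After quantile normalization 5 of the 11 were above 0, and after cyclic loess 4 were.

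The assembly chaperones of the 19S particle were higher by value under all 4 scalings. Psmd5 was at 5.22, 6.72 and 5.54 in CML and 6.37, 6.27 and 6.77 in AML, a change of 0.64 ± 0.39 (SE; limma adjusted p = 0.349). Psmd10, also known as gankyrin, was at 0.53 ± 0.49 and Psmd9 at 0.21 ± 0.27 (SE). In each of the 3 genes CML 2 was the highest CML array and lay within or above the AML range.

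**Figure D3:**
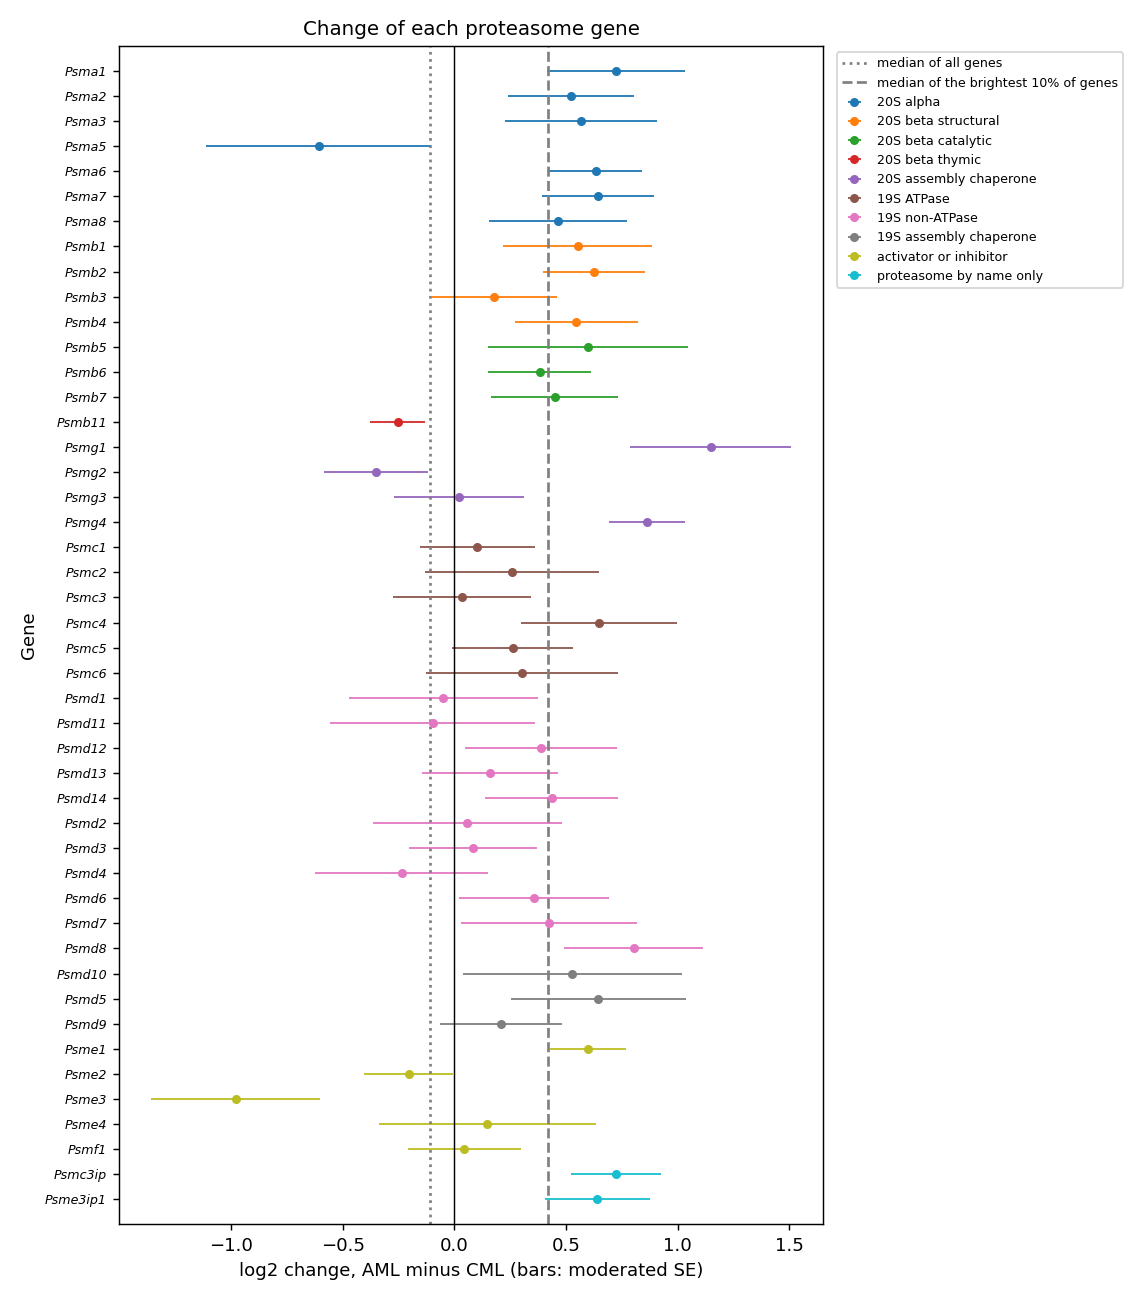
Log2 change, AML minus CML, of each of the 46 genes with its moderated standard error from limma (3 arrays per group), coloured by role, with dotted and dashed lines at the median of all genes (-0.11) and of the brightest 10% (0.42). Most 20S subunits lie at or right of the dashed line, most 19S subunits left of it, and Psme3 lies farthest to the left at -0.98.

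The activators and the inhibitor of the core did not move together. Psme1 and Psme2 encode the subunits of PA28, an interferon-inducible activator used in antigen processing. Psme1 was at 7.60, 7.84 and 7.64 in CML and 8.51, 8.04 and 8.33 in AML. Its groups did not overlap, with a change of 0.60 ± 0.17 (SE, n = 3 each; limma adjusted p = 0.129). Psme2 was at 6.80, 6.72 and 6.26 in CML and 6.19, 6.6 and 6.37 in AML, overlapping, at -0.20 ± 0.20 (SE; limma adjusted p = 0.533).

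Psme3, the nuclear activator PA28 gamma, had the largest fall by value among the 46 genes. It was at 7.31, 8.38 and 7.25 in CML and 6.40, 6.38 and 7.22 in AML. The groups came close but did not overlap, AML 3 lying just under CML 3, and CML was 1.97-fold higher. The change was -0.98 ± 0.38 (SE, n = 3 each; limma adjusted p = 0.210) and ran from -1.25 to -0.61 with 1 array left out. It was the only member lower in AML at an unadjusted p under 0.05. The partner protein of PA28 gamma, Psme3ip1, was at 7.74, 7.55 and 7.11 in CML and 8.23, 7.75 and 8.33 in AML, a change of 0.64 ± 0.23 (SE; limma adjusted p = 0.195).

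Psme4, the activator PA200, was at 5.98, 7.92 and 6.41 in CML and 6.70, 6.87 and 7.18 in AML. CML 2 was the highest of the 6 arrays, and the change was 0.15 ± 0.48, against 0.72 ± 0.23 without CML 2 (SE; limma adjusted p = 0.859 and 0.137). Psmf1, the inhibitor PI31, was at 0.05 ± 0.25 (SE) with overlapping groups, and both genes turned below 0 after quantile normalization and cyclic loess. Psmc3ip and Psme3ip1 carry the prefix without being proteasome subunits, and Psmc3ip acts in meiotic recombination. Psmc3ip was at 5.89, 6.22 and 5.75 in CML and 6.82, 6.36 and 6.84 in AML, without overlap, at 0.72 ± 0.20 (SE; limma adjusted p = 0.128). Without Psmc3ip, Psme3ip1 and the dim Psmb11 the median of the remaining genes was 0.38.

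**Figure D4:**
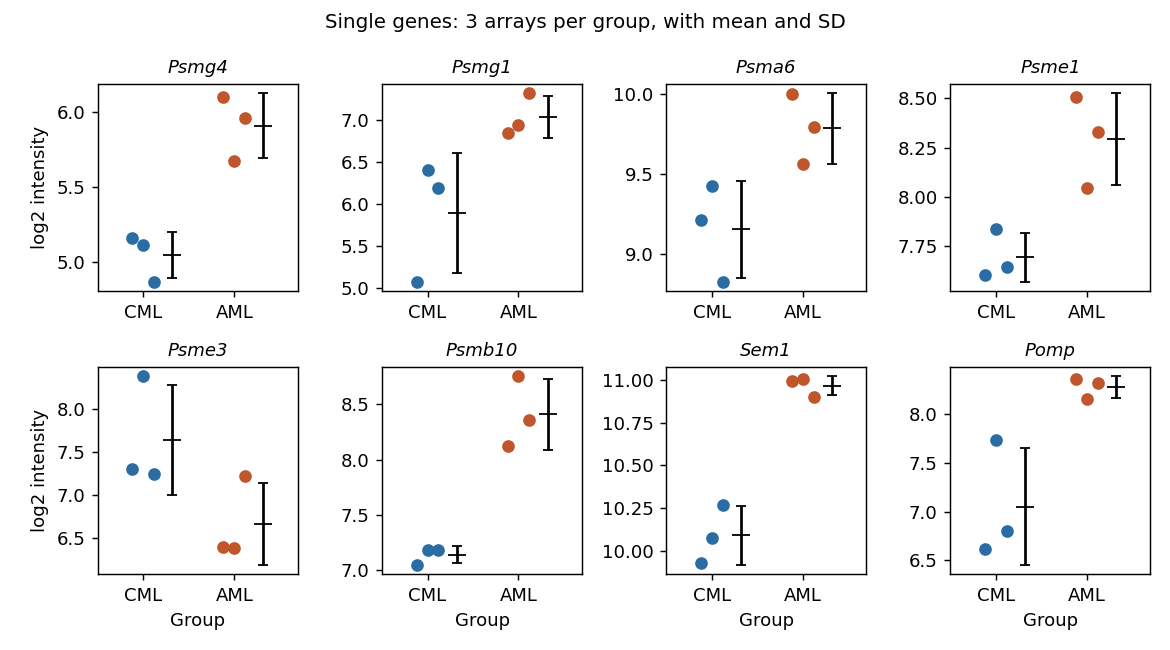
Log2 intensity of 8 genes on each array, with CML arrays in blue and AML arrays in orange, and the mean and SD of each group as a bar beside the points (n = 3 each, vertical axes differ between panels). The groups do not overlap in any of the 8 panels, with AML above CML except for Psme3.

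The spread within each group was shared by nearly all subunits. CML 2 was the highest CML array for 12 of 13 subunits of the 20S core and 17 of 17 of the 19S particle, where it was highest for 33.1% of all genes and 57.3% of the brightest 10%. AML 3 was the highest AML array for 10 of 13 and 17 of 17, against 34.9% and 50.4%. The mean of the 17 genes of the 19S particle, relative to all 6 arrays, stood at -0.41, 0.58 and -0.53 in CML and at -0.06, -0.05 and 0.46 in AML. The 13 genes of the 20S core stood at -0.44, 0.33 and -0.56 in CML and 0.18, 0.17 and 0.32 in AML. The brightest 10% of genes stood at 0.02 on CML 2, so that array was high in proteasome genes beyond its level in bright genes. After cyclic loess CML 2 was still the highest array, at 0.55 for the 19S particle and 0.30 for the 20S core. AML 3 was then the highest AML array for 15 of 17 subunits of the 19S particle but for 5 of 13 of the 20S core, where its mean of 0.09 was below the 0.12 of AML 2.

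**Figure D5:**
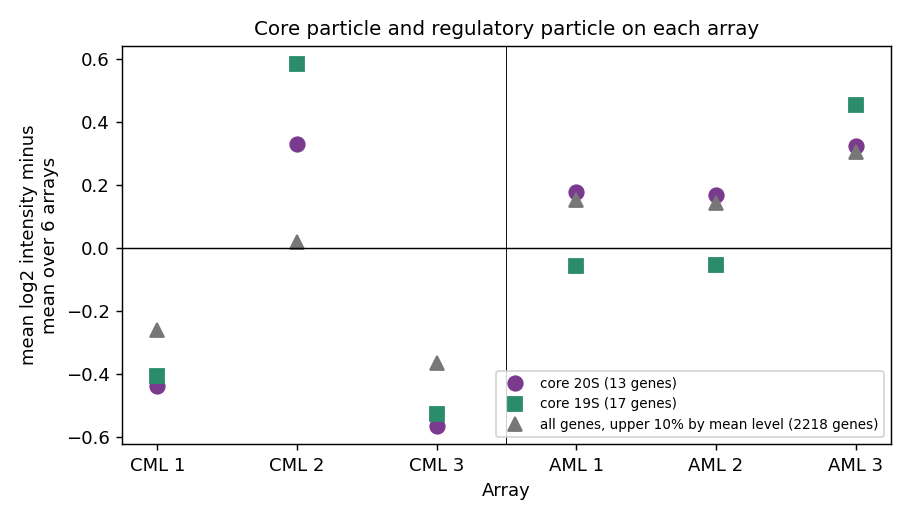
Mean log2 intensity of the 13 subunits of the 20S core, the 17 subunits of the 19S particle and the 2218 brightest genes on each array, each minus its own mean over the 6 arrays. CML 2 lies at 0.33 and 0.58 for the particles and at 0.02 for the bright genes, while CML 1 and CML 3 are low in all 3 sets.

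Across the 6 arrays most subunits followed the mean of the other subunits. Over the 30 genes of both particles the median Pearson correlation with that mean was 0.89, from -0.14 for Psma5 to 0.99 for Psmc5, and 14 of them (46.7%) exceeded 0.9, as did 1.83% of all genes. Of the 30 genes, 27 were in the brightest 10%, for which that share was not computed. The correlations run over 6 points that share array scaling and include the difference between leukemias, and are given as a description. The genes that followed it least were Psma5, Psmb11, Psma8, Psmg2, Psme2 and Psme3, with values from -0.48 for Psmb11 to 0.28 for Psme3. Psmg4 was at 0.50 and Psme1 at 0.58.

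The mean of the 19S particle on CML 2 was above that of every AML array. For the 20S core CML 2 and AML 3 were nearly level, at 0.33 and 0.32. Without the dim Psma5 the 20S mean was 0.31 on CML 2 and 0.42 on AML 3. Single subunits such as Psma6, Psma7 and Psmb2 were lower on CML 2 than on all AML arrays. Without CML 2 the median change of the 46 genes was 0.67, 41 were above 0, and 24 had an unadjusted p under 0.05 in limma as higher in AML. The share in that fit was 14.1% of all genes and 41.6% of the brightest 10%. The AML arrays lay entirely above the remaining CML arrays for 28 of 46, against 19.6% of all genes. That share was not computed for the brightest 10% in this fit. CML 2 was the highest CML array for 39 of the 46 genes, so leaving it out raises the change of those genes by construction. Still 0 of 46 passed the adjusted threshold, where 1.61% of all genes did in either direction. The lowest adjusted p was that of Psmb4, a 20S subunit, at 0.86 ± 0.15 (SE; limma adjusted p = 0.0567). The medians became 0.84 for the 20S core and 0.56 for the 19S particle, against 0.53 for the brightest 10%. Without CML 1 or CML 3, the arrays where subunits were low, the median of the 46 genes was 0.23 and 0.24, and the 19S median was 0.09 and 0.03.

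Markers of other cells moved with the leukemias on the same arrays, and CML 2 and AML 3 stood out there too. All 15 pan-haematopoietic genes were higher in AML by value, and their mean relative to the 6 arrays stood at 0.13, -1.52 and -0.88 in CML and at 1.03, 0.93 and 0.31 in AML. Within each leukemia the array with the most proteasome signal was thus the one with the least pan-haematopoietic signal. The 5 measured genes of neutrophil precursors all passed as higher in AML (limma adjusted p under 0.05), where 1.83% of all genes did. Their means lay between -1.84 and -1.27 in CML and between 0.90 and 2.17 in AML. Elane changed by 3.85 (limma adjusted p = 0.0151). It no longer passed once CML 3, AML 1 or AML 2 was dropped, or with the replicate block (limma adjusted p = 0.098). Of the pan-haematopoietic genes 2 passed as higher, Vav1 and Ptpn6, and of the monocyte and macrophage genes 2, Cd68 and Ccr2. All 3 measured erythroid genes were lower in AML by value, with means of -0.06, 1.55 and 1.05 in CML and -2.7, -0.71 and 0.87 in AML. They peaked on CML 2 within CML and on AML 3 within AML. The 9 measured proliferation genes did the same, at 0.23 and 0.47, and their median change of 0.14 turned to -0.07 after quantile normalization and -0.16 after cyclic loess. The 9 measured osteoblast markers were lower in AML by value, lowest on CML 2 (-0.59) and AML 3 (-1.22) and highest on CML 3 (1.95) and AML 2 (0.20). Col1a1 was bright on every array, at 8.71 to 11.95 in CML and 7.26 to 9.87 in AML. Markers of B cells lay between -1.005 and 2.36 in CML and between -1.11 and 0.02 in AML. Those of monocytes and macrophages ran from -0.59 to -0.27 and from -0.06 to 0.76, with 6 of 10 genes higher in AML by value and 4 lower, while T and NK and endothelial markers lay between -0.21 and 0.23. Some T, NK and endothelial markers, such as Cd3e and Stab2, were below the array median on every array. Others, such as Nkg7 and Pecam1, were not. The part of these cells in the proteasome values was not tested.

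Around the proteasome, 2 of 28 measured genes of its immediate network passed, both higher in AML, where 1.83% of all genes passed as higher and 0.0812% as lower, and both encode parts of the particle itself. Psmb10, the inducible counterpart of Psmb7, was at 7.04, 7.18 and 7.18 in CML and 8.12, 8.76 and 8.36 in AML. The groups lay far apart, with a change of 1.28 ± 0.19, or 2.42-fold (SE, n = 3 each; limma adjusted p = 0.0359). Sem1, the smallest subunit of the 19S lid, was at 9.93, 10.07 and 10.27 in CML and 10.99, 11.003 and 10.90 in AML, a change of 0.87 ± 0.15 (SE; limma adjusted p = 0.0437). Neither passed in any of the 6 fits with 1 array left out, where adjusted p ran from 0.0547 to 0.131 for Psmb10 and from 0.0651 to 0.184 for Sem1, and the changes from 1.10 to 1.42 and from 0.79 to 0.96. The other inducible subunits, Psmb8 and Psmb9, were at 0.65 ± 0.58 and 0.87 ± 0.49 (SE) with overlapping groups. Psmb8 was at 7.94 on CML 1 and 5.80 on CML 2, and Psmb9 at 8.74 and 6.74, so CML 2, the highest CML array for most standard subunits, was the lowest for both.

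Of the 8 measured proteasome-associated genes, 7 were higher by value, with a median of 0.76, and 1 passed (Sem1, described above), where 1.83% of all genes passed as higher. Pomp, the maturation factor of the 20S core, was at 6.62, 7.73 and 6.80 in CML and 8.36, 8.15 and 8.32 in AML. Its change was 1.23 ± 0.30 (SE, n = 3 each; limma adjusted p = 0.0971). It passed only in the fit without CML 2, its highest CML array, where 1.61% of all genes passed in either direction. Over all settings tried its adjusted p in limma ran up to 0.289. Ecpas, which tethers the 19S particle to the core, was at 6.86, 6.62 and 5.70 in CML and 7.59, 7.58 and 7.77 in AML, at 1.25 ± 0.30 (SE; limma adjusted p = 0.0964). Both were without overlap and above 0 under all 4 scalings.

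The factors that raise transcription of subunit genes went in different directions by value. Nfe2l1, which encodes NRF1, was at 6.56, 7.38 and 6.73 in CML and 6.69, 6.44 and 6.53 in AML, a change of -0.34 ± 0.23 (SE; limma adjusted p = 0.398). Nfe2l2, which encodes the antioxidant factor NRF2 and is named here after its values were seen, was at 7.62, 8.16 and 7.53 in CML and 8.48, 8.68 and 8.55 in AML. Its groups did not overlap, at 0.80 ± 0.20 (SE; limma adjusted p = 0.103). It passed only in the fit without CML 2, its highest CML array, where 1.61% of all genes passed in either direction. A list of 9 measured genes held both factors, their partners Mafg, Mafk and Maff, and Vcp, Ufd1, Nploc4 and Ngly1, which extract and process NRF1. It had a median of -0.01, with 4 above 0. The 7 measured shuttle and ubiquitin-binding genes had a median of 0.32, with 6 above 0, and turned to -0.03 after cyclic loess. Of the ubiquitin genes and their activating enzymes, 1 of 6, Uba6, was measured by a probe set of its own, at 0.43 ± 0.44 (SE).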

How the data were processed

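Sample RNA was amplified and labelled for Affymetrix arrays, per the labels' protocols. Limma and lumi appear in the submitters' processing notes, with no version or step. The authors deposited linear intensity values, from 2.71 to 8583, for 39721 probe sets. For background correction, probe summaries and normalization no source used here names a method. The number of arrays limits the precision. Of the probe sets, 23521 had 1 gene symbol in the platform annotation, 1814 several and 14386 none. Those with several or none were left out. The 49 probe sets of the 46 genes were found in RefSeq by Entrez identifier, with 0 symbols changed. Groups followed the titles.

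Log2 intensities (floor at 1) were fitted over all 22180 genes with limma 3.58.1 in R 4.3.3 (lmFit, eBayes, no filter or covariate, two-sided). SE are moderated. Alternatives were median centring, quantile normalization, cyclic loess, 2 filters on mean level, the mean of probe sets, a pseudocount of 16, trend with robust eBayes, leaving out each array in turn and a replicate block. The fit was tested on simulated data drawn independently for each gene and array. That test does not cover deviations shared by many genes of an array, such as those of CML 2 and AML 3. Members and lists were chosen with earlier results of these data known, and the other probe sets and the brightest 10% were added after the values were seen. Named genes were members with adjusted p under 0.05, the 12 with the lowest p, the extremes of each role and a set list of subunits and regulators. Psma2, Psma3, Psmb1, Psmb4, Psmc1, Psmc2, Psmc5, Psmc6, Psmd1, Psmd2, Psmd10, Psmg3 and Uba6 were named after their values were seen. Figures used matplotlib 3.10.9.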

Additional observations from a re-analysis of the deposited data

How the results depend on the processing

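The count of 0 proteasome genes past the threshold became 1 (Psmg4) after median centring. It stayed at 0 under all other settings, with 0 to 0 when 1 array was left out. With 1 array left out, 3 to 24 of them were higher at an unadjusted p under 0.05 in limma, against 9.27% to 14.1% of all genes. The 24 came from the fit without CML 2, where 14.1% of all genes and 41.6% of the brightest 10% were. The median change of the 46 genes, 0.38, ran from 0.22 without AML 3 to 0.67 without CML 2, was 0.17 after quantile normalization and 0.08 after cyclic loess, and stayed above 0 throughout. The count of 2 network genes became 0 after quantile normalization, after cyclic loess, with trend and robust options and with the replicate block, 1 in the upper 50% of genes and 1 with the pseudocount, and ran from 0 to 2 with 1 array left out. The 2 without CML 2 were Pomp and Nfe2l2, not Psmb10 and Sem1. Over all genes, 405 passed as higher in AML as fitted, 874 after median centring, 87 after quantile normalization, 61 after cyclic loess, 219 with the pseudocount and 273 without AML 3. In limma 0 passed with the replicate block (11.1% higher at an unadjusted p under 0.05) or without CML 3 (10%), AML 1 (9.27%) or AML 2 (10.4%).

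Single genes near 0 changed sign. After quantile normalization Psmc3 was at -0.17, Psme4 at -0.047 and Psmf1 at -0.17, and after cyclic loess they were at -0.32, -0.14 and -0.22. With 1 array left out, Psmd9 ran from -0.056 (without CML 1) to 0.40, Psmb3 from -0.12 (without CML 1) to 0.36, Psmf1 from -0.22 (without CML 1) to 0.26 and Psmd4 from -0.56 to 0.18 (without CML 2). Psme4 ran from -0.25 to 0.72, below 0 without CML 1 or CML 3, and Psmc3 from -0.21 to 0.37, below 0 without CML 1, CML 3 or AML 3. The other probe set of Psmg2 gave 0.20. The cause of these changes was not tested.

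The replicate numbers were not taken as pairs. Deviations of same-numbered arrays correlated at 0.24, -0.30 and -0.25 over genes, and CML 2 and CML 3 were closest to AML 3 and AML 2. With the replicate block 0 of 46 proteasome genes and 0 of 28 network genes passed. Probe sets near the array medians, such as those of Psma5, Psma8 and Psmb11, carry little signal over background.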

Other observations

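Complexes related to the proteasome in structure or function were examined with lists written after the proteasome values were seen and before their own values were. The COP9 signalosome is a relative of the 19S lid that removes NEDD8 from cullins. It was higher in AML by value in 10 of 10 genes, with a median change of 0.57 and 0 past the adjusted threshold in limma. At an unadjusted p under 0.05 in limma 4 were higher, where 12.6% of all genes and 33.5% of the brightest 10% were. How many genes of this list and the lists below are in that 10% was not counted. The brightest 10% is thus not a background matched to them by level. The COP9 median was 0.72 after median centring, 0.34 after quantile normalization and 0.30 after cyclic loess, where 9 of 10 were higher. Cops9, a small subunit, was at 7.39, 7.21 and 7.38 in CML and 8.04, 7.77 and 7.89 in AML, a change of 0.57 ± 0.14 (SE, n = 3 each; limma adjusted p = 0.101). Cops3 was at 6.20, 6.80 and 6.05 in CML and 7.42, 6.92 and 7.61 in AML, a change of 0.97 ± 0.27 (SE; limma adjusted p = 0.125). Their groups did not overlap, and they are named after their values were seen. The relative of the lid deubiquitinase Psmd14, Cops5, was at 0.88 ± 0.47 (SE), with CML 2 above AML 1 and AML 2.

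The cullin-RING ligases that COP9 acts on were higher by value in 10 of 11 genes, with a median of 0.44 that fell to 0.18 after cyclic loess, and 0 passed in limma (3 higher at an unadjusted p under 0.05, against the same 12.6% and 33.5%). Cul4a was the exception, at 5.96, 7.23 and 7.18 in CML and 5.15, 5.96 and 6.58 in AML, while its paralog Cul4b was at 6.32, 6.94 and 5.58 and 7.02, 7.11 and 7.31. Their changes were -0.89 ± 0.47 and 0.87 ± 0.34 (SE; limma adjusted p = 0.301 and 0.211). The chaperonin CCT, a folding machine of another kind, was higher by value in 8 of 8 genes with a median of 0.43, which became 0.08 with 5 of 8 higher after cyclic loess, and 0 passed in limma (1 higher at an unadjusted p under 0.05, against 12.6% and 33.5%). Within each leukemia its mean was highest on CML 2 and AML 3, at 0.34 and 0.60 relative to the 6 arrays, as it was for the proteasome. The same 2 arrays were highest for COP9 (0.185 and 0.45), the cullin-RING list (0.14 and 0.37) and the brightest 10% (0.02 and 0.31). The median of the brightest 10% of genes was 0.42.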
